A study of Mus musculus with 12 samples.

Results

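The genes of potassium channels and their auxiliary subunits were examined in the anterior striatum of mice given mephedrone, ethanol or both. They were taken as every gene whose single symbol in the platform annotation begins with Kcn, and the probe sets of a gene were averaged. Kcnj13 was left out because it marks choroid plexus, which lies in the ventricles and secretes cerebrospinal fluid. This gave 91 genes, measured by 94 probe sets, among 19938 genes with a single symbol. Kcnh8, Kcna2 and Kcnma1 had 2 probe sets each, and all 91 symbols were found in the RefSeq gene table. The 91 genes fall into 15 channel subfamilies. They also include 3 antisense transcripts (Kcnmb4os1, Kcnmb4os2 and Kcnd3os) and Kcnrg, a regulator named for potassium channels, none of which encodes a channel.

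All mice were adolescent males of the Swiss CD-1 stock, which is outbred, and no transgene or deletion is named. They went through a place preference procedure of 10 days, in which a compartment is paired with a drug, and treatment came 15 minutes before confinement to that compartment. The 4 groups received saline, ethanol, mephedrone (a synthetic cathinone, a stimulant) or mephedrone with ethanol, called the combination, with 3 arrays in each group. The labels give no dose and do not say that each array held the RNA of a separate animal, so the p-values measure only how far these samples spread, and that spread may be technical. In bulk tissue, fewer cells of a type and less RNA per cell cannot be told apart.

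Each value is a log2 difference from the centre of that gene over the 12 arrays, so 1 unit is a doubling and values can be compared between arrays but not between genes. Levels before centring are not in the table. The stored precision of the numbers showed a level between 8 and 16 on the log2 scale for 57 of the 94 potassium channel probe sets, which is 60.6%, against 46.5% of all probe sets. All 13 measured probe sets of striatal projection neuron markers lay between 8 and 16. The same held for all 11 of oligodendrocyte markers and for 10 of 13 of cortical excitatory neuron markers. This level therefore cannot tell striatum from other brain tissue, and it does not check the tissue label.

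Potassium channels set the resting potential of a neuron, end its action potentials and space its firing. The projection neurons of the striatum rest at a very negative potential held by inward rectifier (Kir2) channels, leave it slowly because of A-type (Kv4 with KChIP subunits) and M-type (Kv7) currents, and are slowed by calcium-activated BK and SK channels. Kv3 channels let fast-spiking interneurons fire at high rates, Kir4.1 clears potassium into astrocytes, and G-protein-gated GIRK and BK channels are direct targets of ethanol.

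Promoter sequence was looked at because clock gene transcripts were among those that changed with mephedrone. Of 12 clock genes, listed with earlier results of these data known, 4 passed between the 6 arrays given mephedrone and the 6 not given it, with Ciart higher by 0.743 (SE 0.0592, adjusted p = 0.000989 in limma) and Arntl lower, at -0.461 (SE 0.0494, adjusted p = 0.011). Clock proteins bind the palindromic E-box CACGTG, which reads the same on both strands. A RefSeq window from 250 bases before to 50 bases after a start site (GRCm38.p6) was available for 69 of the 91 genes. The motif was in a window of 6 of them, Kcnj2, Kcnh4, Kcne4, Kcnab1, Kcnk5 and Kcnn4, which is 8.7%, against 8.09% of 27025 genes. The 4 stretches below lie upstream of the start site and show the motif in capitals with 30 bases on each side.
Kcnj2, chr11:111066050-111066115, plus strand: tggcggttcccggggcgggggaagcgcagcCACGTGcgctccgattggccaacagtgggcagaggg
Kcnh4, chr11:100759830-100759895, minus strand: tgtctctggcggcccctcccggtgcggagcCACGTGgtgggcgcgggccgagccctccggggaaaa
Kcne4, chr1:78816827-78816892, plus strand: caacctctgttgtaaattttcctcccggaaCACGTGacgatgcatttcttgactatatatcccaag
Kcnab1, chr3:65188028-65188093, plus strand: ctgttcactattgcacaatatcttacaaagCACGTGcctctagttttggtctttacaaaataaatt
None of the 6 genes passed a test of the treatments. Between the 6 arrays given mephedrone and the 6 not given it, Kcnj2 differed by -0.070 (SE 0.093), Kcnh4 by -0.057 (SE 0.058), Kcne4 by 0.061 (SE 0.037) and Kcnab1 by -0.0030 (SE 0.055). Without combination replicate 3, an array described in the next paragraph, Kcnj2 differed by -0.0040 (SE 0.081) and Kcne4 by 0.040 (SE 0.036). A match describes letters in a window and is not evidence of binding.

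In the potassium channel genes, 1 array stood apart from the other 11 and a second less so. In combination replicate 3 the values of the 91 genes had an SD of 0.313, against 0.0714 to 0.118 in the 10 arrays other than it and ethanol replicate 1, where the SD was 0.18. In combination replicate 3, 25 of the 91 genes lay more than 0.2 above their centre (27.5%, against 8.9% of all genes) and 11 lay more than 0.2 below it (12.1%, against 3.99%). It held the highest of the 12 values for 31 genes (34.1%, against 18.2% of all genes) and the lowest for 21 (23.1%, against 13.4%). Over all genes its SD was also the largest of the 12 arrays, at 0.175, with 0.126 in ethanol replicate 1. In ethanol replicate 1, 13 genes lay more than 0.2 above the centre (14.3%, against 5.35% of all genes).

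Markers of other cells also moved in these arrays, but not only in them. The mean of 13 measured markers of cortical excitatory neurons was 0.83 in combination replicate 3, and 0.37, 0.32 and 0.33 in saline replicate 2, ethanol replicate 1 and mephedrone replicate 2, against -0.51 to 0.028 in the other 8. The mean of 12 choroid plexus markers was 1.5 in combination replicate 3, and the mean of 13 striatal projection neuron markers was -0.31 there and -0.18 in ethanol replicate 1. The part of these differences in the results was not tested. Where leaving out combination replicate 3 turned the sign of a difference in a potassium channel gene described below or moved it by over 1.5 times, the value without that array is given too, except where the difference was under 0.05 in size both with and without it.

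**Figure D1:**
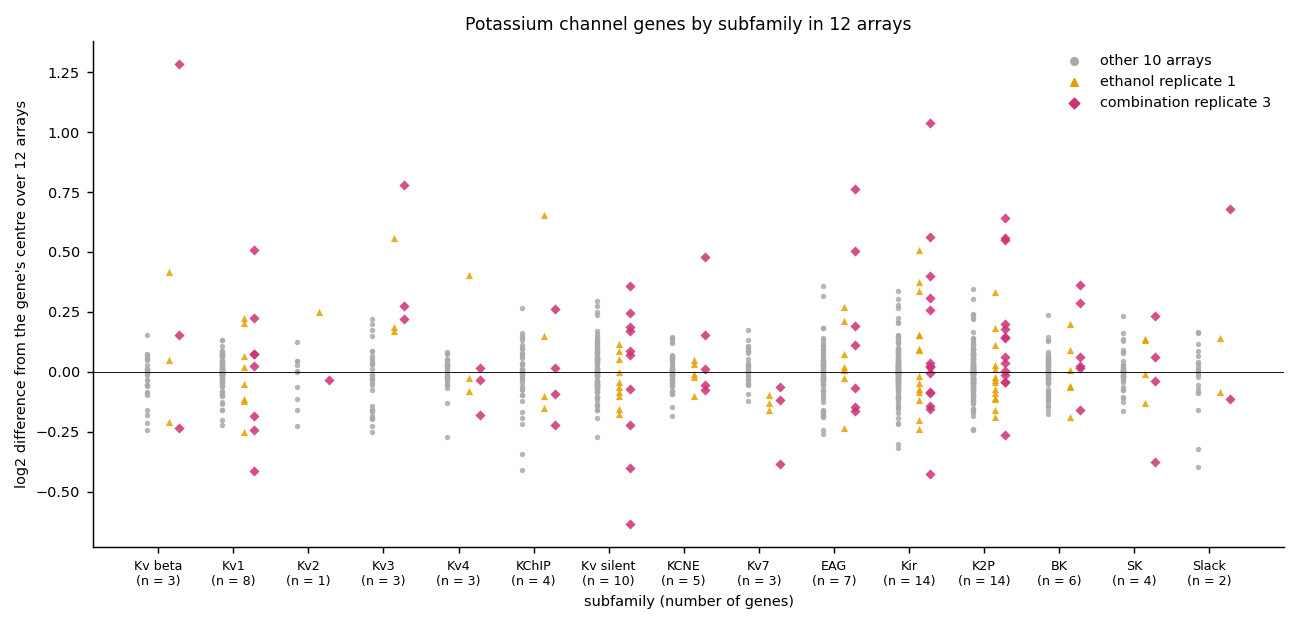
Log2 difference of each potassium channel gene from its centre over the 12 arrays (vertical axis), by subfamily with its number of genes (horizontal axis). Each point is 1 gene in 1 array, and the 3 antisense transcripts and Kcnrg are not drawn. The diamonds of combination replicate 3 reach 1.28 for Kcnab3 and -0.64 for Kcng1, beyond the grey points of the other 10 arrays.

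No potassium channel gene passed the threshold in any of the 10 comparisons, each fitted by limma over 12 arrays with Benjamini-Hochberg adjustment over 19938 genes at 0.05. For any difference among the 4 groups the count was 0 of 91, beside 0.00502% of all genes. For the mephedrone main effect, which sets the 6 arrays given mephedrone against the 6 not given it, it was 0 of 91 beside 0.115%. It was 0 of 91 beside 0.01% for the combination against saline and beside 0.0251% for the combination against ethanol. In the other 6 comparisons (the ethanol main effect, ethanol or mephedrone against saline, the combination against mephedrone, mephedrone against ethanol, and the interaction) 0% of all genes and 0 of the 91 passed. With such low backgrounds, a count of 0 among 91 genes does not set them apart from other genes. The smallest adjusted p of a potassium channel gene was 0.164 for the mephedrone main effect, 0.236 for the combination against saline, 0.326 for the combination against ethanol and 0.512 for any difference. It lay between 0.551 and 1 in the other 6.

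At an unadjusted p under 0.05 the share of potassium channel genes was below that of all genes in each of the 10 comparisons. The mephedrone main effect gave 5 of 91 (5.49%), of which 1 was higher with mephedrone and 4 were lower, against 12.6% of all genes. It was 5 of 91 against 12.1% for the combination against saline and 5 of 91 against 9.73% for the combination against ethanol. For any difference among the groups it was 4 of 91 (4.4%) against 8.35%, and for mephedrone against saline 4 of 91 against 7.23%. The ethanol main effect gave 3 of 91 (3.3%) against 4.57%, ethanol against saline 3 of 91 against 4.98%, and the interaction 3 of 91 against 3.54%. The combination against mephedrone gave 2 of 91 (2.2%) against 3.31%, and mephedrone against ethanol 0 of 91 against 6.28%. The comparisons share arrays, so they are not independent, and the difference between the shares was not tested.

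**Figure D2:**
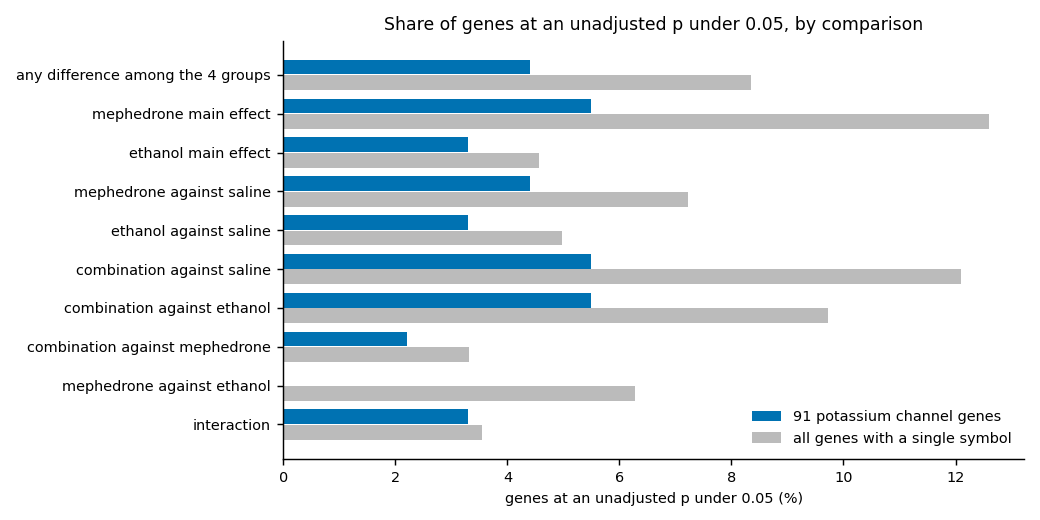
Share of genes at an unadjusted p under 0.05 in limma (horizontal axis, percent) in each of 10 comparisons (vertical axis), for the 91 potassium channel genes (blue) and all 19938 genes (grey). The blue bar is the shorter in every comparison, with 5.49% against 12.6% for the mephedrone main effect.

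The size of the differences was bounded for most genes. The 95% interval of the mephedrone main effect lay within a 1.5-fold change in either direction (0.585 on the log2 scale) for 90 of the 91 genes, against 99.5% of all genes, and for 88 in the ethanol main effect, against 99.6%. It did so for 87 genes in mephedrone against saline (99.1% of all genes) and in ethanol against saline (99%), for 82 in the combination against saline (98.4%), and for 80 in the interaction (96.5%), whose error is larger. The median mephedrone main effect was -0.0019 over the 91 genes and 0.0038 over all genes, with 43 values above 0 and 48 below. The median range over the 12 arrays was 0.317 for the potassium channel genes against 0.233 for all genes, and the median size of their mephedrone main effect was 0.0466 against 0.0339.

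Groups of arrays that did not overlap were found for some genes. No potassium channel gene had all 6 mephedrone arrays on 1 side of the other 6, where 1.27% of all genes did, and none had all 6 ethanol arrays on 1 side, where 0.115% did. For the combination against saline 5 of 91 had no overlap, against 17.4% of all genes, and for the combination against ethanol 5 of 91, against 13.2%. For mephedrone the count was 7 of 91 against saline, where 14.7% of all genes had no overlap, and 7 of 91 against ethanol, where 12.3% had none. It was 5 of 91 for ethanol against saline, beside 8.55%, and 10 of 91 for the combination against mephedrone, beside 9.38%. The difference between these shares was not tested.

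When combination replicate 3 and ethanol replicate 1 were left out, 3 of 91 potassium channel genes passed for the mephedrone main effect, beside 1.07% of all genes (213). These were Kcns2, Kcnk1 and Kcnq5, described with their subfamilies. The arrays to leave out were chosen after the values were seen, so passing without them is not independent support for these genes. At an unadjusted p under 0.05 the same fit gave 13 of 91, beside 16.9% of all genes. In the other 9 comparisons no potassium channel gene passed without these arrays.

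Among the voltage-gated channels, a silent subunit had the smallest p for mephedrone. A silent subunit carries no current alone and changes the gating of Kv2 channels when it joins them. The 10 silent subunit genes had a median mephedrone main effect of -0.0015, 5 above 0 and 5 below, and of -0.029, 3 above 0 and 7 below, without combination replicate 3. Kcns2, which encodes the silent subunit Kv9.2, was 0.083, 0.25 and 0.24 under saline, -0.15, 0.28 and 0.17 under ethanol, -0.083, -0.16 and 0.084 under mephedrone and -0.11, -0.10 and -0.22 under the combination. All 3 combination arrays and 2 of 3 mephedrone arrays were below 0, as was ethanol replicate 1, while the other 5 arrays without mephedrone lay between 0.083 and 0.28. The group means were 0.19 ± 0.092 (SD, n = 3) under saline and -0.14 ± 0.067 (SD, n = 3) under the combination, with no overlap between the 2 groups. The mephedrone main effect was -0.24 (SE 0.070, 95% interval -0.40 to -0.088), a ratio of 0.846. It did not pass (unadjusted p = 0.00523, adjusted p = 0.164 in limma). The combination differed from saline by -0.33 (SE 0.099, adjusted p = 0.236 in limma). The main effect passed without ethanol replicate 1 (-0.305, adjusted p = 0.0421 in limma, where 0.431% of all genes passed). It passed without that array and combination replicate 3 (-0.29, SE 0.051, adjusted p = 0.0398 in limma, where 1.07% passed). It also passed when arrays were weighted by their quality (-0.268, adjusted p = 0.0407 in limma), where 356 of 19938 genes passed. The weights were lowest for ethanol replicate 1 (0.341) and combination replicate 3 (0.374), so these fits are not separate support. The main effect did not pass without combination replicate 3 alone (adjusted p = 0.219 in limma).

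Kcng1, the silent subunit Kv6.1, was 0.13, 0.0021 and 0.058 under saline, -0.040, 0.30 and 0.014 under ethanol, -0.084, -0.050 and 0.036 under mephedrone and -0.0021, -0.16 and -0.64 under the combination. Combination replicate 3 was far below every other array, and the next lowest value was -0.16. The mephedrone main effect was -0.23 (SE 0.095, unadjusted p = 0.0371 in limma), and -0.13 (SE 0.060, unadjusted p = 0.0502) without that array, which moves it by over 1.5 times. Against saline the combination arrays did not overlap, but only narrowly, with 0.0021 in saline replicate 2 and -0.0021 in combination replicate 1. The difference was -0.33 (SE 0.13) with combination replicate 3 and -0.14 (SE 0.090) without it. Kcng3, the silent subunit Kv6.3, was 0.057, 0.075 and 0.095 under mephedrone and -0.18, -0.044 and -0.19 under ethanol, with no overlap and a difference of 0.21 (SE 0.10, unadjusted p = 0.0604 in limma). Kcnb2, a Kv2 gene, had a mephedrone main effect of -0.0076 (SE 0.071).

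Kv7 channels carry the M-current that restrains repetitive firing. Kcnq5 was -0.0021, 0.0021 and -0.012 under saline, -0.098, -0.054 and -0.033 under ethanol, 0.10, 0.17 and 0.13 under mephedrone and 0.10, 0.11 and -0.38 under the combination. In the 5 arrays given mephedrone other than combination replicate 3 it lay between 0.10 and 0.17, above every array not given mephedrone, whereas combination replicate 3 was the lowest of the 12. The main effect was 0.072 (SE 0.072, adjusted p = 0.759 in limma) over 12 arrays. Without combination replicate 3 it was 0.15 (SE 0.025, adjusted p = 0.0529), and without ethanol replicate 1 as well it was 0.14 (SE 0.025, adjusted p = 0.0382), which passed. In that array the mean of the striatal projection neuron markers was -0.31, and its part in the Kcnq5 value was not tested. Kcnq3, a partner in the neuronal M-channel, varied little, from -0.13 to 0.051 over the 12 arrays, with a main effect of -0.013 (95% interval -0.095 to 0.069).

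**Figure D3:**
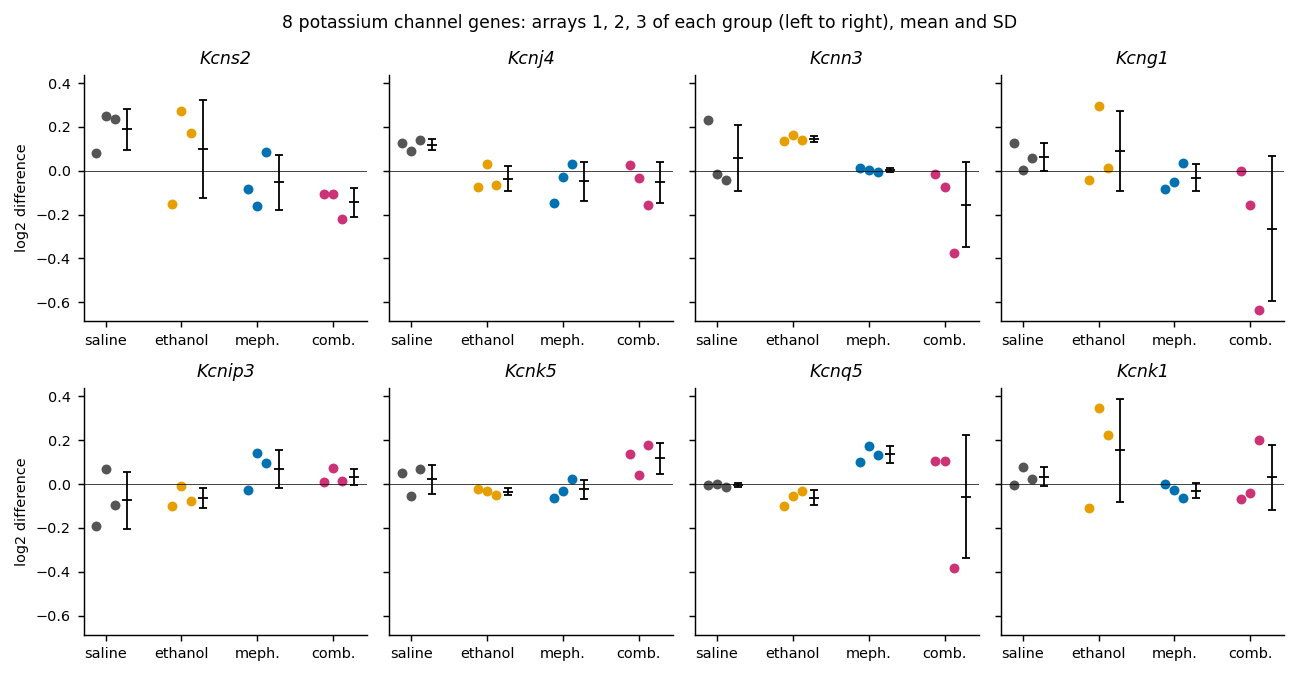
Log2 difference (vertical axis) of 8 potassium channel genes in each array, in the order saline, ethanol, mephedrone (meph.) and combination (comb.), with replicates 1 to 3 as points from left to right and the mean and SD of the group (n = 3) beside them. Kcns2 and Kcng1 are lowest in combination replicate 3, which is also the only low combination array for Kcnq5, while the 3 saline arrays of Kcnj4 lie above all 9 others.

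The A-type channels of projection neurons gave small differences. Kv4 channels open at subthreshold potentials and inactivate fast, and the calcium-binding KChIP subunits set how many reach the membrane. Kcnd2, the Kv4 gene most typical of striatal projection neurons, was 0.055, -0.054 and -0.0074 under saline, -0.080, 0.051 and -0.036 under ethanol, 0.014, 0.0074 and 0.021 under mephedrone and -0.025, 0.033 and -0.18 under the combination. Its groups overlapped, with a mephedrone main effect of -0.010 (95% interval -0.096 to 0.075) and an ethanol main effect of -0.046 (95% interval -0.13 to 0.040). Kcnip2, the KChIP gene enriched in striatum, was 0.039, 0.030 and -0.0063 under saline and -0.059, -0.023 and -0.22 under the combination. Its 2 lowest arrays were combination replicate 3 and ethanol replicate 1, the arrays with the lowest striatal markers, and the main effect of mephedrone was -0.072 (SE 0.048), or -0.041 (SE 0.045) without combination replicate 3. Kcnd3 had a main effect of -0.062 (SE 0.080).

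Kcnip3 encodes KChIP3, which is also the transcriptional repressor DREAM and a presenilin-binding protein. It was -0.19, 0.067 and -0.097 under saline, -0.10, -0.011 and -0.076 under ethanol, -0.026, 0.14 and 0.096 under mephedrone and 0.011, 0.075 and 0.015 under the combination. The mephedrone arrays lay higher on average but overlapped with saline replicate 2 and ethanol replicate 2. The main effect was 0.12 (SE 0.045, unadjusted p = 0.0206 and adjusted p = 0.279 in limma). Kcnip1 ranged over 1.07, from -0.41 in saline replicate 2 to 0.65 in ethanol replicate 1. Its ethanol main effect was 0.31 (SE 0.14, unadjusted p = 0.0491 in limma), and 0.16 (SE 0.11, unadjusted p = 0.166) without ethanol replicate 1 and combination replicate 3. Kcnip4 had a mephedrone main effect of 0.041 (SE 0.050). It was 0.076 (SE 0.045) without combination replicate 3, and 0.10 (SE 0.040, unadjusted p = 0.0266 in limma) without ethanol replicate 1 as well.

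The genes of fast-spiking interneuron channels differed in how far they varied between arrays of the same treatment. Kcnc2, which encodes the Kv3.2 channel, was 0.18, -0.031 and -0.25 under saline, 0.56, -0.20 and 0.031 under ethanol, -0.14, 0.067 and -0.17 under mephedrone and 0.22, -0.19 and 0.78 under the combination. Kcnc1, which encodes Kv3.1, was 0.087, -0.014 and -0.075 under saline, 0.17, 0.014 and -0.014 under ethanol, -0.028, 0.054 and -0.056 under mephedrone and 0.15, -0.047 and 0.22 under the combination. The range over the 12 arrays was 1.03 for Kcnc2 and 0.29 for Kcnc1. Both were highest in combination replicate 3, ethanol replicate 1, combination replicate 1 and saline replicate 1, in 3 different groups. Kcnc4, the third measured Kv3 gene, did not follow them. It was highest in combination replicate 3, mephedrone replicate 2, ethanol replicate 1 and saline replicate 2, and was -0.033 in saline replicate 1. Kcnab3, a beta subunit that binds the inner face of Kv1 channels, had the widest range of the 91 genes, 1.53. It was 0.15, -0.060 and -0.16 under saline, 0.42, -0.011 and 0.029 under ethanol, -0.18, 0.011 and -0.21 under mephedrone and 0.058, -0.24 and 1.28 under the combination, and its 4 highest arrays were the same 4. The mean of 6 measured fast-spiking interneuron markers was also highest in these 4 arrays, at 0.17, 0.17, 0.16 and 0.050 in ethanol replicate 1, combination replicate 3, saline replicate 1 and combination replicate 1. The mean of 4 measured genes of HCN pacemaker channels and their partner, described below, was highest in the same 4 arrays. It was 0.183, 0.128, 0.125 and 0.0909 in combination replicate 3, saline replicate 1, ethanol replicate 1 and combination replicate 1. These matches were noticed after the values were seen, and their part in the results was not tested. The mephedrone main effect was 0.047 (SE 0.16) for Kcnc2, 0.021 (SE 0.051) for Kcnc1 and 0.059 (SE 0.21) for Kcnab3. Without combination replicate 3 all 3 had the opposite sign, at -0.081 (SE 0.13) for Kcnc2, -0.0068 (SE 0.050) for Kcnc1 and -0.17 (SE 0.092) for Kcnab3.

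The 8 Kv1 genes, whose low-threshold channels sit near the axon initial segment and terminals, had a median mephedrone main effect of 0.0013, with 4 above 0 and 4 below. Kcna1 (Kv1.1) was -0.11, -0.036 and -0.0081 under ethanol and -0.037, 0.069 and 0.22 under the combination, with a mephedrone main effect of 0.098 (SE 0.045, unadjusted p = 0.0521 in limma). It was 0.064 (SE 0.038) without combination replicate 3 and 0.048 (SE 0.038) without ethanol replicate 1 as well. Kcna2 (Kv1.2) had a main effect of -0.077 (SE 0.035, unadjusted p = 0.0513), which was -0.10 (SE 0.029, unadjusted p = 0.0044) without combination replicate 3 and -0.098 (SE 0.031, unadjusted p = 0.00879) without both arrays. These subunits can assemble in 1 channel, and neither gene passed after adjustment. Kcna4, the Kv1.4 subunit of axonal A-type channels, was -0.12, -0.0091 and -0.10 under ethanol and 0.020, -0.0086 and -0.41 under the combination, against -0.058, 0.085 and 0.11 under saline. Its ethanol main effect was -0.16 (SE 0.069, unadjusted p = 0.0347 in limma). Combination replicate 3 was the lowest array, and without it the effect was -0.095 (SE 0.040). Kcna5 (Kv1.5) was -0.042, -0.13 and -0.20 under saline and 0.029, 0.046 and 0.076 under mephedrone, without overlap, at a difference of 0.18 (SE 0.071, adjusted p = 0.645 in limma). Its interaction was -0.21 (SE 0.10), or -0.13 (SE 0.081) without combination replicate 3. Kcnab1, the beta subunit that confers fast inactivation, had a mephedrone main effect of -0.0030 (SE 0.055).

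The 7 genes of the ether-a-go-go family had a median mephedrone main effect of -0.011, with 3 above 0 and 4 below, and of -0.045 without combination replicate 3, with the same counts. Kcnh5 was -0.24, 0.13 and -0.16 under saline, 0.074, -0.18 and -0.18 under ethanol, -0.045, 0.11 and 0.0089 under mephedrone and -0.0089, 0.052 and 0.51 under the combination, with a mephedrone main effect of 0.20 (SE 0.094, unadjusted p = 0.0606 in limma). Combination replicate 3 was the highest array, and without it the effect was 0.12 (SE 0.071, unadjusted p = 0.133). Kcnh7 (Erg3) ran from -0.26 in saline replicate 1 to 0.76 in combination replicate 3. It was also above 0.3 in saline replicate 2 and mephedrone replicate 2, and its main effect was 0.072 (SE 0.16), or -0.073 (SE 0.12) without combination replicate 3. Kcnh8 had an interaction of -0.16 (SE 0.072, unadjusted p = 0.0483 in limma), and of -0.11 (SE 0.062, unadjusted p = 0.118) without combination replicate 3. Among the 5 KCNE genes, whose small proteins modify Kv channels, Kcne4 had a difference of 0.11 (SE 0.053, unadjusted p = 0.0537) between the combination and ethanol, and of 0.072 (SE 0.054, unadjusted p = 0.211) without combination replicate 3.

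Of the 14 inward rectifier genes, the difference with mephedrone was positive for 4 and negative for 10, at a median of -0.0062. Kcnj4, which encodes the Kir2.3 channel of projection neurons, was 0.13, 0.091 and 0.14 under saline, -0.073, 0.031 and -0.065 under ethanol, -0.15, -0.028 and 0.030 under mephedrone and 0.028, -0.031 and -0.15 under the combination. The 3 saline arrays lay above all 9 drug arrays. Kcnj4 differed from saline by -0.17 (SE 0.056, unadjusted p = 0.0119) under mephedrone, by -0.16 (SE 0.056, unadjusted p = 0.0178) under ethanol and by -0.17 (SE 0.056, unadjusted p = 0.0103) under the combination. These 3 comparisons use the same saline arrays, and their adjusted p-values in limma were 0.551, 0.997 and 0.272. The largest is a ratio of 0.888. The interaction was 0.15 (SE 0.079, unadjusted p = 0.0829). Kcnj2, the Kir2.1 gene, ran from -0.43 in combination replicate 3 to 0.22 in ethanol replicate 2, with groups that overlapped. Kcnj12 (Kir2.2) was -0.0049, 0.057 and 0.27 under mephedrone, a difference from ethanol of 0.12 (SE 0.059), with mephedrone replicate 3 the highest of the 12 arrays. Kcnj14 (Kir2.4) differed by -0.15 (SE 0.070) in the same comparison.

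The 4 GIRK genes encode the channels through which dopamine D2, opioid and other Gi-coupled receptors hyperpolarise neurons, and which ethanol opens directly. Kcnj3 (GIRK1) was -0.30, 0.28 and -0.12 under saline, 0.51, -0.32 and 0.0040 under ethanol, 0.10, 0.34 and -0.0040 under mephedrone and -0.052, -0.020 and 1.04 under the combination. Kcnj6 (GIRK2) was -0.11, 0.20 and -0.036 under saline, 0.34, -0.19 and -0.0066 under ethanol, 0.084, 0.16 and 0.00040 under mephedrone and -0.038, -0.00040 and 0.56 under the combination. Kcnj9 (GIRK3) was -0.014, -0.0073 and 0.0073 under saline, 0.15, -0.046 and -0.015 under ethanol, -0.019, 0.15 and 0.022 under mephedrone and 0.030, -0.061 and 0.40 under the combination. All 3 genes were highest in combination replicate 3. The 4 highest arrays of Kcnj3 and of Kcnj6 were combination replicate 3, ethanol replicate 1, mephedrone replicate 2 and saline replicate 2, 1 from each group. These are the 4 arrays with the highest mean of the cortical excitatory neuron markers, and the 2 lowest, saline replicate 1 and ethanol replicate 2, were the lowest for both genes too. Kcnc4, Kcnh7, Kcnh5, Kcna6 and Kcnmb4, which are not GIRK genes, had the same 4 highest arrays, so this order is not particular to GIRK genes. Kcnj5, the remaining GIRK gene, did not follow Kcnj3 and Kcnj6, with 0.13 in ethanol replicate 3, its highest array, and -0.10 in saline replicate 2. The part of cortical tissue in the GIRK values was not tested. The combination differed from saline by 0.37 (SE 0.28) for Kcnj3, 0.15 (SE 0.16) for Kcnj6 and 0.13 (SE 0.10) for Kcnj9, and the smallest unadjusted p of the 3 was 0.218 in limma. Without combination replicate 3 these were 0.011 (SE 0.21), -0.039 (SE 0.13) and -0.011 (SE 0.066).

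**Figure D4:**
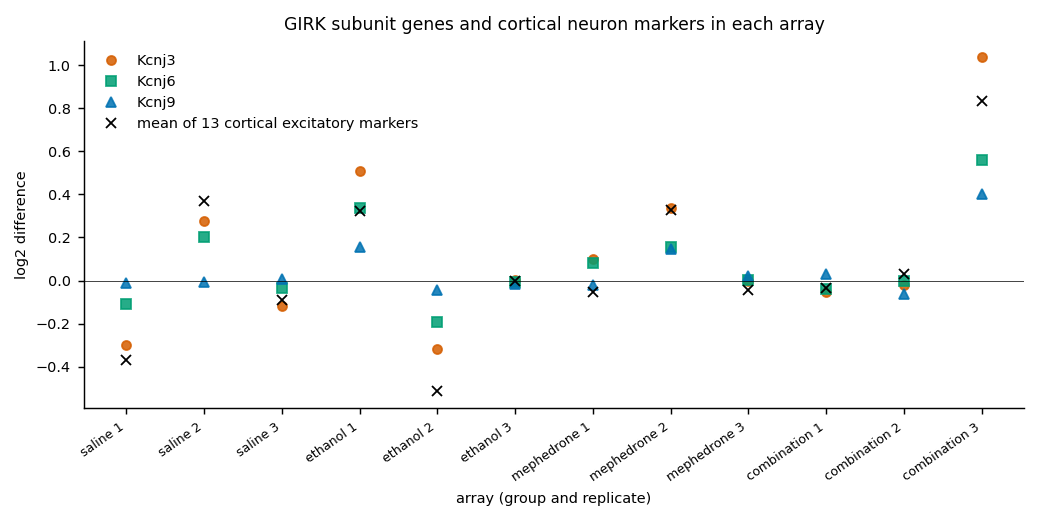
Log2 difference (vertical axis) of Kcnj3, Kcnj6 and Kcnj9 and of the mean of 13 cortical excitatory neuron markers (crosses) in each of the 12 arrays (horizontal axis). The crosses and Kcnj3 are high in the same 4 arrays, 1 of each group, and reach 0.83 and 1.04 in combination replicate 3.

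Kcnj5 (GIRK4) was 0.036, -0.10 and -0.10 under saline and 0.091, -0.0065 and 0.13 under ethanol, a difference of 0.13 (SE 0.052, unadjusted p = 0.0325 and adjusted p = 0.997 in limma). Of the 7 genes of channels on which ethanol is known to act (4 GIRK genes, Kcnma1, Kcnmb1 and Kcnmb4), none passed in any comparison, and 6 of 7 were above 0 in the ethanol main effect at a median of 0.055, against 0.0088 over all genes. The mean of the 7 genes was 0.35 in combination replicate 3. Without that array 2 of 7 were above 0 in the ethanol main effect and the median was -0.015, against 0.0069 over all genes.

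Potassium buffering and metabolic channels of glia and vessels showed no difference that passed. Kcnj10 encodes Kir4.1 of astrocytes and oligodendrocytes, and was 0.082, -0.029 and 0.0062 under saline, 0.094, -0.022 and 0.016 under ethanol, -0.0062, -0.071 and -0.069 under mephedrone and 0.016, -0.078 and 0.31 under the combination. Combination replicate 3 was highest, and there the mean of 10 astrocyte markers was 0.28 and that of 11 oligodendrocyte markers 0.53. The main effect of mephedrone on Kcnj10 was -0.0075 (95% interval -0.13 to 0.12). Without combination replicate 3 it was -0.064 (SE 0.034, unadjusted p = 0.0892). Kcnj16 (Kir5.1), its partner subunit, had a main effect of -0.12 (SE 0.097). The KATP channel genes Kcnj8 (Kir6.1, of pericytes) and Kcnj11 (Kir6.2, of neurons) had main effects of -0.0013 (SE 0.050) and -0.0015 (SE 0.047). Among 12 measured markers of endothelium and mural cells, 1 passed for the same contrast, the endothelial tight junction gene Cldn5, which fell by 0.297 (SE 0.0441, adjusted p = 0.0333 in limma).

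The 14 two-pore (K2P) genes encode leak channels, and had a median mephedrone main effect of 0.0091 with 9 above 0 and 5 below. These counts were 7 and 7 without combination replicate 3. Kcnk1 encodes TWIK1, a weakly conducting leak channel, and was -0.0026, 0.080 and 0.025 under saline, -0.11, 0.35 and 0.22 under ethanol, 0.0026, -0.027 and -0.065 under mephedrone and -0.069, -0.040 and 0.20 under the combination. Ethanol replicates 2 and 3 were the highest of the 12 arrays and ethanol replicate 1 the lowest. The main effect of mephedrone was -0.093 (SE 0.071, adjusted p = 0.665 in limma) over 12 arrays. Without ethanol replicate 1 and combination replicate 3 it was -0.20 (SE 0.033, adjusted p = 0.0341), and in no other fit did it pass.

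Kcnk5 encodes TASK2, a leak channel opened by alkaline conditions, and had the smallest p of the 91 genes in the test of any difference (unadjusted p = 0.0231, adjusted p = 0.512 in limma). It was 0.053, -0.053 and 0.069 under saline, -0.023, -0.029 and -0.051 under ethanol, -0.065, -0.031 and 0.023 under mephedrone and 0.14, 0.041 and 0.18 under the combination. The 3 combination arrays lay above the 3 ethanol arrays and above the 3 mephedrone arrays, but overlapped with saline. The combination differed from ethanol by 0.15 (SE 0.046, unadjusted p = 0.00611) and from mephedrone by 0.14 (SE 0.046, unadjusted p = 0.0093). The interaction, by which the combination departs from the sum of both drugs, was 0.20 (SE 0.065, unadjusted p = 0.00965, adjusted p = 1 in limma). The Kcnk5 probe set lies in the lower level range, between 4 and 8, which holds 34 potassium channel genes in all. Other described genes in that range are Kcna5, Kcnj5, Kcnj6, Kcnj8, Kcnj14, Kcnj16, Kcnk13, Kcnh8, Kcne4, Kcnmb1, Kcnn1 and Kcnmb4os2. The level range was mixed or not settled for Kcnj3 and Kcnma1. Kcnk6 (TWIK2) had an interaction of the opposite sign, -0.20 (SE 0.088, unadjusted p = 0.0411).

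Kcnk13 (THIK1), the leak channel of microglia, was 0.0049, -0.078 and 0.12 under saline, -0.090, -0.058 and -0.0049 under ethanol, 0.052, -0.027 and -0.043 under mephedrone and 0.075, 0.0096 and 0.55 under the combination. Its value in combination replicate 3 is the only one above 0.2, while the mean of 11 microglial markers was 0.029 in that array. The combination differed from ethanol by 0.26 (SE 0.11, unadjusted p = 0.0384 in limma) with that array and by 0.093 (SE 0.058, unadjusted p = 0.138) without it. Kcnk12 (THIK2) differed by 0.17 (SE 0.071, unadjusted p = 0.0382) between ethanol and saline, without overlap. Kcnk9 (TASK3) and Kcnk4 (TRAAK) had ranges of 0.80 and 0.80 and were highest in combination replicate 3, with mephedrone main effects of 0.14 (SE 0.13) and 0.16 (SE 0.12). Without that array these were 0.062 (SE 0.12) and 0.044 (SE 0.071). The mechanically gated Kcnk2 (TREK1) and the acid-sensitive Kcnk3 (TASK1) had main effects of -0.065 (SE 0.056) and -0.074 (SE 0.049). That of Kcnk2 was -0.019 (SE 0.043) without combination replicate 3.

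**Figure D5:**
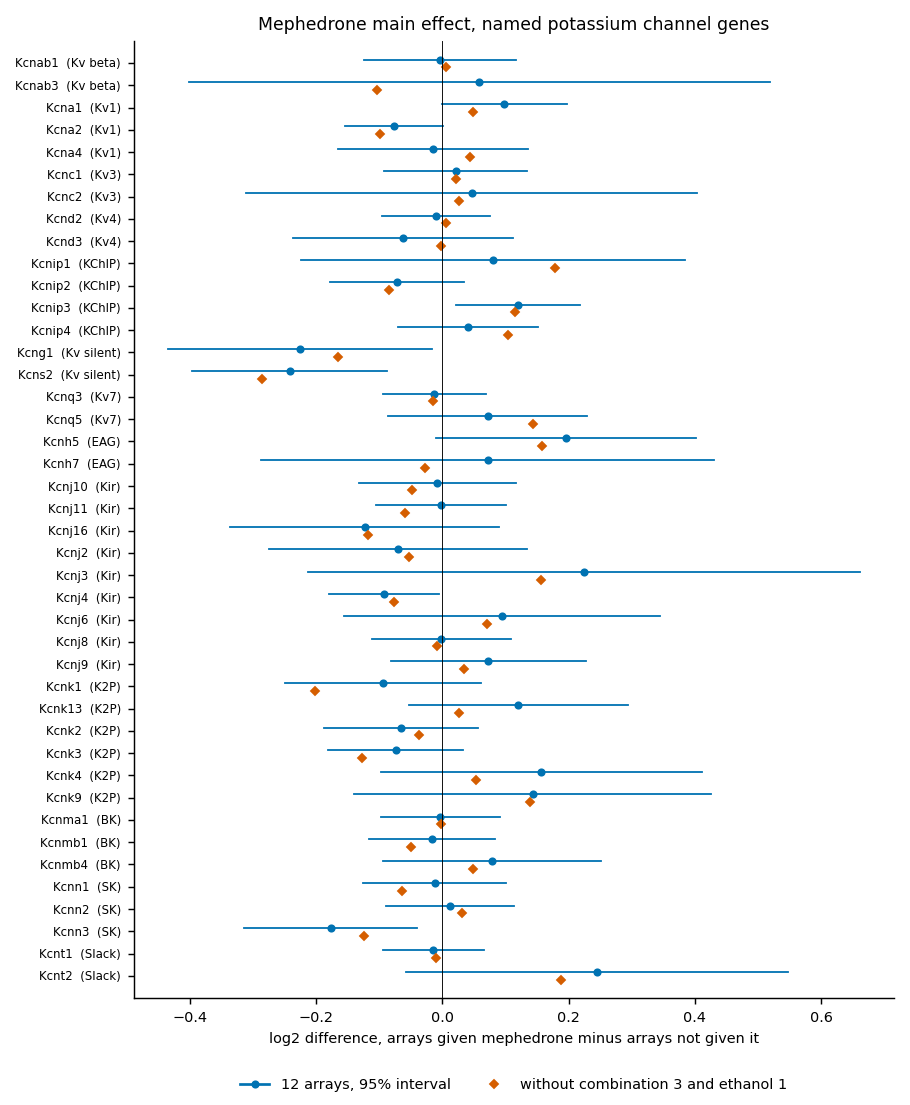
Log2 difference between the 6 arrays given mephedrone and the 6 not given it (horizontal axis) for the potassium channel genes named for this comparison (vertical axis). Blue points with bars are the estimate and 95% interval over 12 arrays, and orange diamonds the estimate without combination replicate 3 and ethanol replicate 1. The interval is wide for Kcnab3, Kcnj3 and Kcnc2, and the diamonds of Kcns2, Kcnk1 and Kcnq5 lie farther from 0 than their points.

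The calcium-activated channels follow spikes and shape the pauses after them. Kcnn3 encodes SK3, a channel of the medium afterhyperpolarisation that is prominent in dopamine neurons and is also made in striatum. It was 0.23, -0.016 and -0.042 under saline, 0.13, 0.16 and 0.14 under ethanol, 0.013, 0.0050 and -0.0050 under mephedrone and -0.015, -0.074 and -0.37 under the combination. The 3 ethanol arrays lay close together and above all 6 arrays given mephedrone, whereas saline replicate 1 was the highest of all. The mephedrone main effect was -0.18 (SE 0.062, unadjusted p = 0.0158, adjusted p = 0.255 in limma), and -0.12 (SE 0.046, unadjusted p = 0.0226) without combination replicate 3. The combination differed from ethanol by -0.30 (SE 0.088, adjusted p = 0.326 in limma), and by -0.19 (SE 0.069) without that array.

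Of the other neuronal SK genes, Kcnn2 (SK2) had a mephedrone main effect of 0.012 (SE 0.046) and Kcnn1 (SK1) of -0.012 (SE 0.052). For Kcnn1 it was -0.056 (SE 0.040) without combination replicate 3. Kcnma1, the pore of the BK channel that ethanol activates, was -0.042, 0.24 and -0.015 under saline, 0.0072, -0.027 and -0.0095 under ethanol, -0.031, 0.023 and 0.0089 under mephedrone and 0.025, 0.049 and 0.061 under the combination. Apart from saline replicate 2, its values lay between -0.042 and 0.061. The ethanol main effect was -0.013 (95% interval -0.11 to 0.081) and the mephedrone main effect -0.0028 (95% interval -0.096 to 0.091). Kcnmb4, the neuronal beta subunit that sets ethanol sensitivity of BK channels, had an ethanol main effect of 0.055 (SE 0.079), and of -0.011 (SE 0.060), the opposite sign, without combination replicate 3. Kcnmb1, the beta subunit of smooth muscle, had one of 0.031 (SE 0.045). Kcnmb4os2, an antisense transcript at the Kcnmb4 locus, was -0.075, -0.085 and -0.11 under saline and 0.064, 0.012 and 0.12 under the combination. The difference was 0.15 (SE 0.054, unadjusted p = 0.0152, adjusted p = 0.297 in limma), without overlap, and 0.13 (SE 0.059, unadjusted p = 0.056) without combination replicate 3.

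The 2 sodium-activated channel genes had unequal ranges. Kcnt2 (Slick) ranged from -0.40 in saline replicate 1 to 0.68 in combination replicate 3, the third widest range of the 91 genes, with a mephedrone main effect of 0.25 (SE 0.14), or 0.13 (SE 0.10) without combination replicate 3. Kcnt1 (Slack) stayed between -0.11 and 0.085, with a main effect of -0.014 (SE 0.037).

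Genes that work beside potassium channels did not pass either. Of 18 genes for channel partners, all measured, 0 passed in any comparison. Dpp10, whose product joins Kv4 channels with KChIPs, had the smallest p of them in the test of any difference (0.0366). It was -0.40, -0.038 and -0.37 under saline, 0.14, -0.41 and -0.15 under ethanol, 0.15, 0.051 and -0.051 under mephedrone and 0.10, 0.038 and 0.40 under the combination, and the 6 arrays given mephedrone lay at -0.051 or above, as did saline replicate 2 and ethanol replicate 1. Its mephedrone main effect was 0.317 (SE 0.0993, unadjusted p = 0.00817, adjusted p = 0.194 in limma). Its relative Dpp6 had a main effect of -0.022 (SE 0.0488).

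Of 5 genes for HCN pacemaker channels and their partner, 4 were measured and 0 passed. Hcn4 had a mephedrone main effect of -0.14 (SE 0.0522, unadjusted p = 0.021, adjusted p = 0.281 in limma) and Hcn3 of -0.09 (SE 0.0568). Of 14 genes for sodium-potassium pumps and potassium cotransporters, 10 were measured and 0 passed. The pump beta subunits Atp1b1 and Atp1b2 had mephedrone main effects of 0.055 (SE 0.0312) and -0.05 (SE 0.0512).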

How the data were processed

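RNA abundance was measured on 12 arrays, 3 in each of 4 treatment groups. The deposited table holds log2 values of 28853 probe sets. Per the submitters' processing notes the authors used RMA and genome build mm8, and the design text gives GeneSpring GX 7.3.1 as the software. Each probe set was centred on its median over the 12 arrays, which was checked on the table (largest median 7e-07, with 0 missing values). The log2 scale and the level range were read from the values, as no source states them. RMA compresses small differences of dim probe sets.

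Symbols came from the platform annotation, and probe sets with several symbols were not used. The 21789 probe sets with 1 symbol were averaged to 19938 genes. Group means were fitted with limma 3.58.1 in R 4.3.3 (8 residual and 3.43 prior degrees of freedom), with two-sided tests and Benjamini-Hochberg adjustment. The fit was tested on simulated data. The number of arrays limits the precision.

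The members, gene lists and tests were chosen with earlier results of these data known. Genes were named by a rule: those past the threshold, the 12 smallest p for any difference, the 8 or 4 smallest p in each other comparison, the 10 widest ranges, and a list of channels known in striatum. Of the genes beside the channels, the 2 with the smallest p of each list were named. The alternatives were other normalisations, array weights, a replicate block, robust moderation, bright probe sets, probe set rows, the groups compared alone, and leaving out arrays.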

Additional observations from a re-analysis of the deposited data

Results flagged for a closer look

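In 24 groups of 6 arrays, the value farthest from the rest was set against Dixon's 95% critical value, which chance passes in about 1 of 20 groups. The groups of 3 were not tested. In 4 groups the value passed, and in each it was combination replicate 3. Among the 6 arrays given mephedrone, the gap was 0.776 of the range for Kcnn3, where that array was at -0.374. It was 0.712 for Kcng1, at -0.636, and 0.721 for Kcnh5, at 0.505. Among the 6 arrays given ethanol it was 0.668 for Kcna4, at -0.412. No interaction of a potassium channel gene passed, and at an unadjusted p under 0.05 there were 3 of 91.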

How the results depend on the processing

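Over 22 settings and 10 comparisons, 213 of 216 counts of potassium channel genes past the threshold were 0. The other 3 were for the mephedrone main effect, with 1 gene under array quality weights, 1 without ethanol replicate 1 (86 of all genes), and 3 without both ethanol replicate 1 and combination replicate 3. Leaving out each array in turn gave 0 to 1 genes for that comparison and 0 for the others. The count over all genes for the mephedrone main effect, 23 as reported, ranged from 2 without saline replicate 1 to 356 under array quality weights, and was 213 without both arrays. Of 1701 values of named differences under alternatives, 1674 kept their side of the threshold and moved by less than the criterion, 22 moved by more, 5 newly passed and 0 called values changed sign. Uncalled values changed sign 75 times, in 19 pairs of gene and comparison. The cause of these changes was not tested.

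Replicate numbers are shared by the groups. Of 18 pairs of arrays with the same number 7 correlated above 0.1 in their deviations from the group means (-0.281 to 0.427), against -0.434 to 0.395 in 36 other pairs, and 5 of 12 arrays correlated best with their own number. These ranges overlap and the counts were not set against chance, so they cannot decide whether the numbers pair the arrays. In the fits reported the numbers were not taken to pair them. With a replicate block, 0 potassium channel genes passed in each of the 10 comparisons. With 3 arrays a group, small differences lie within the intervals given, and levels over background cannot be read from centred values.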
